A study of Mus musculus with 3 samples.

Results

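Quiescent stroma at postnatal day 7 is a group of 197 cells out of the 509 kept in that library, which is 38.7% (exact Clopper-Pearson 95% interval 34.5% to 43.1%), and out of 1548 kept in the whole series. Its cells were chosen by their own mRNA levels, each cell scaled to 10000 unique molecular identifiers (UMIs), a scale called CP10K here. A member held at least 10 CP10K of Dcn, Lum, Lsp1 and Mfap4 together and under 5 of the mitosis genes Mki67, Top2a, Birc5, Ube2c, Ccnb2 and Prc1. It also held under 4 of Tmem100, Hhip, Osr2 and Enpep, under 5 of the granulosa genes Inha, Amh, Hsd17b1 and Nr5a2, and under 2 of the endothelial genes Cldn5 and Cdh5. Levels of these genes, and every contrast between the group and other cells of its own library, follow from that choice and are given as descriptions.

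Ovaries of female C57BL/6 mice were dissociated with collagenase, and mixed single cells were read with a droplet method that counts UMIs near the 3′ end of mRNAs. The series has 3 libraries, 1 from embryonic day 16.5 (its title reads ED17) and the others from 7 and 14 days after birth, and the series title concerns the passage from estrogen receptor α to β in the granulosa lineage. The labels name no treatment or genetic change and do not say how many animals a library held, so no spread between animals can be given, no p-value was computed, and age and library cannot be told apart. Intervals are exact Poisson or binomial 95% intervals and cover counting error only.

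The stroma of the ovary is the connective tissue between follicles. Its fibroblast-like cells secrete collagens, proteoglycans and elastic fibres, carry receptors for growth factors and steroids, and contribute to the theca around growing follicles. In the first postnatal weeks follicles start to grow inside this tissue while part of the stroma divides.

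The 197 cells summed to 2126552 UMIs, with a median of 8392 UMIs and 2935 genes per cell, and the median mitochondrial share of UMIs was 0.883%. The other 312 cells of the library were deeper, with a median of 15873 UMIs. Cycling stroma (70 cells, median 13232 UMIs) failed the mitosis threshold alone, and Hhip-side cells (42 cells, median 11028 UMIs) failed the Tmem100, Hhip, Osr2 and Enpep threshold alone. Granulosa-side cells (85 cells, median 18045 UMIs) passed the granulosa level, lay under the stroma level and lay under the endothelial level. Endothelial-gate cells (22 cells, median 22978 UMIs) held at least 5 CP10K of Cldn5 and Cdh5. The same rule found 121 of 583 cells at postnatal day 14 (20.8%, 17.5% to 24.3%) and 64 of 456 at embryonic day 16.5 (14.0%, 11.0% to 17.6%). Across the 3 libraries the total was 8743797 to 9065595 UMIs, and no cell barcode was shared between them.

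Stroma markers were present throughout the group. Dcn, a small collagen-binding proteoglycan, and Mfap4, a glycoprotein of elastic fibres, had UMIs in all 197 cells. Dcn had a median of 26.7 CP10K per cell and a highest value of 99.3, and Mfap4 a median of 17.5 and a highest value of 73.0. Lum, a proteoglycan related to Dcn, was found in 172 cells and Lsp1, an actin-binding protein that leukocytes also express, in 182. Cxcl12, a chemokine, and Fhl2, a LIM-domain scaffold protein, were no part of the rule and had UMIs in 160 and 154 cells. The sum of the 4 stroma genes of the rule ran from 10.7 to 181 CP10K with a median of 61.4. The members nearest the threshold stood at 10.7 and 11.9 CP10K, and the cells just outside it at 9.56, 9.38 and 9.33. The Hhip-side threshold ran through denser ground, with 14 members within 20% of it, against 2 each for the stroma and mitosis thresholds.

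**Figure D1:**
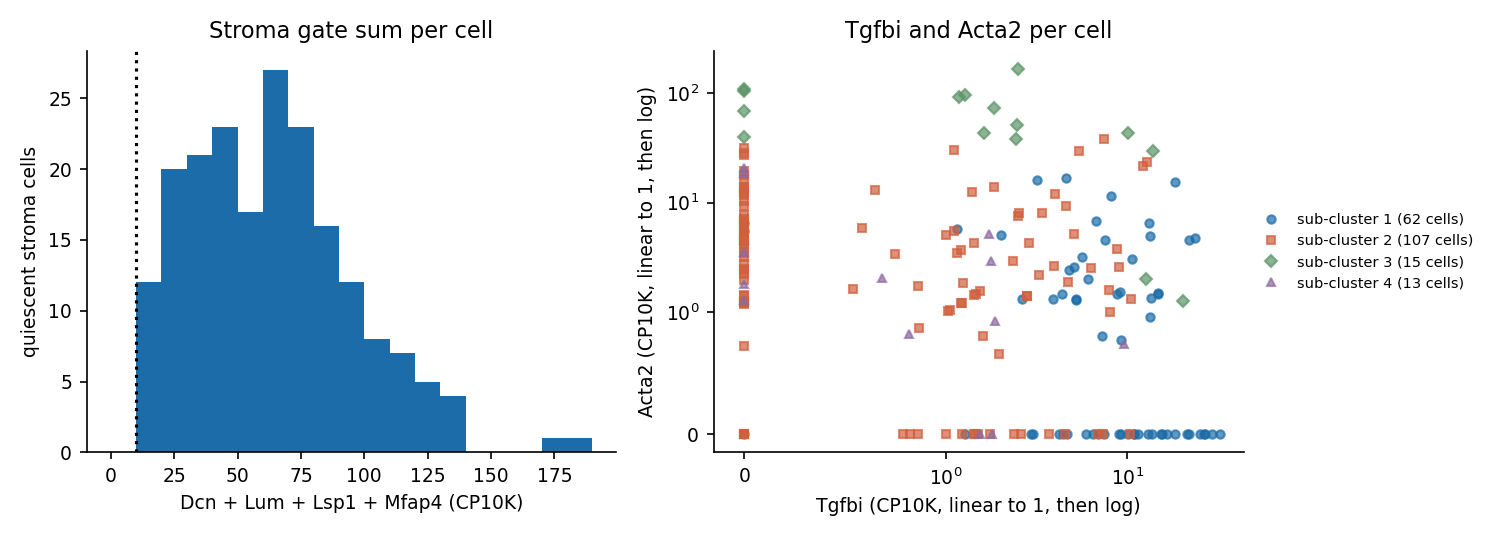
Left, number of quiescent stroma cells by the summed level of Dcn, Lum, Lsp1 and Mfap4 in CP10K, with the threshold of 10 as a dotted line. Right, Tgfbi and Acta2 in each of the 197 cells in CP10K (axes linear to 1, then log), with a colour and symbol for each of 4 sub-clusters; sums run from 10.7 to 181, and most of the 15 cells of sub-cluster 3 lie high on the Acta2 axis, with Tgfbi at 0 in part of the cells of sub-cluster 2.

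The label holds with limits. The mitosis threshold uses genes of G2 and M phase, and 13 of the 197 cells formed a sub-cluster led by S phase genes, so the group is stroma outside mitosis rather than stroma wholly at rest. A further 15 cells held at least 2 CP10K of the contractile genes Actg2, Cnn1 and Myh11. Another 3 cells carried RNA of blood cells beside their Dcn. In 1 of them 45.7% of the UMIs came from haemoglobin genes (4570.3 CP10K, against 14.3 in the next cell), and 2 held 242 and 222 CP10K of the neutrophil genes S100a8 and S100a9, against 2.48 in the next. Scrublet, a doublet caller, marked 3 cells of the library and 0 of the 197.

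Summed over the group, markers of other cell types were seldom absent. Cell by cell, at least 2 UMIs of endothelial, immune, germ cell and surface epithelium markers were found in 21, 12, 3 and 22 of the 197 cells. For granulosa, steroid-making cell, smooth muscle or pericyte and erythroid markers the numbers were 153, 52, 84 and 175. The 10 endothelial markers summed to 45.1 counts per 1000000 UMIs (CPM) over the group, against 4768 in endothelial-gate cells. The 10 granulosa markers summed to 443 CPM, against 4863 in granulosa-side cells. Immune markers came to 63.5 CPM with 0 of 10 genes at 0, against 625 in cycling stroma and 557 in Hhip-side cells, where 5 of 70 and 1 of 42 cells held at least 5 leukocyte UMIs. Germ cell markers came to 18.3 CPM with 2 of 10 at 0, surface epithelium markers to 55.0 with 3 of 10 at 0, and steroid-making cell markers to 108 with 3 of 8 at 0, among them Cyp17a1 and Cyp11a1, enzymes of androgen and pregnenolone synthesis. Smooth muscle or pericyte markers summed to 635 CPM, and the highest member held 74.8 CP10K. Their sum was 143 in the other cells as a whole, 399 in cycling stroma, 149 in Hhip-side cells and 395 in endothelial-gate cells. Of these 10 genes, Myh11, Actg2, Cnn1 and Tagln were at least 2-fold higher than in the other cells as a whole. Rgs5 was at least 2-fold lower, and the rest were less than 2-fold apart. Erythroid markers summed to 5587 CPM, against 422 in cycling stroma, with a median cell at 4.21 CP10K, and the haemoglobin-rich cell at 4588 CP10K held most of that sum.

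Against the other 312 cells of the library, quiescent stroma held higher levels of most fibrillar collagen genes. Levels were compared as the log2 ratio of (CPM + 10) for genes with at least 10 UMIs in both groups together, and a gene was counted at 2-fold or more. Of 15606 genes, 296 were higher (1.90%) and 787 lower (5.04%), and the median gene stood at -0.11. Of the small leucine-rich proteoglycans, which bind and space collagen fibrils, 5 of 8 tested were higher and 0 lower, with a median of 1.53. Dcn and Lum are genes of the rule, and without them 3 of 6 were higher, with a median of 1.11. Of the fibrillar and linked collagens 9 of 11 were higher, with a median of 1.38, and of the elastic fibre genes 10 of 15, with a median of 1.13, or 9 of 14 without the rule gene Mfap4. Basement membrane genes, by contrast, had 2 higher and 2 lower of 15 and a median of -0.16.

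Dcn stood at 2744 CPM (2674 to 2816) in quiescent stroma and 593 in the other cells, with 1990.0 in cycling stroma, 1654 in Hhip-side cells, 47.5 in granulosa-side cells and 99.6 in endothelial-gate cells. Cxcl12 stood at 425 CPM against 83.8, a ratio of 5.07, and at 215 CPM in endothelial-gate cells. Ogn, a proteoglycan also called osteoglycin, stood at 254 CPM (233 to 276) against 28.6, a ratio of 8.88 (7.51 to 10.5). The stroma groups thus held all 3 genes, and granulosa-side cells had the lowest level of each among these groups. Tcf21, a transcription factor of gonadal mesenchyme, stood at 466 CPM against 118, and Pdgfra, a receptor for platelet-derived growth factors, at 229 against 88.4. Tagln, an actin-binding protein of contractile cells, was 8.18-fold higher (7.24 to 9.26), and its log2 ratio went from 2.82 to 1.70 without the contractile cells.

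Signalling and regulatory lists were mixed in the same comparison. Of 10 IGF family genes 3 were higher, namely Igf1, Igfbp4 and Igfbp6, and Igfbp2 was lower, with a median of 0.58. Igfbp6, a binding protein that prefers IGF2, stood at 385 CPM against 115. Igfbp7 stood at 1271 CPM, but endothelial-gate cells held 4309.9. Serping1, the inhibitor of complement C1, stood at 234 CPM against 44.0. Dlk1, a membrane protein related to Notch ligands, stood at 720.4 CPM (685 to 757) against 168, and Meg3, a noncoding RNA, at 1229.7 against 295. Of 20 S phase genes 7 were lower and of 20 G2 and M phase genes all 20, which the mitosis threshold favours.

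**Figure D2:**
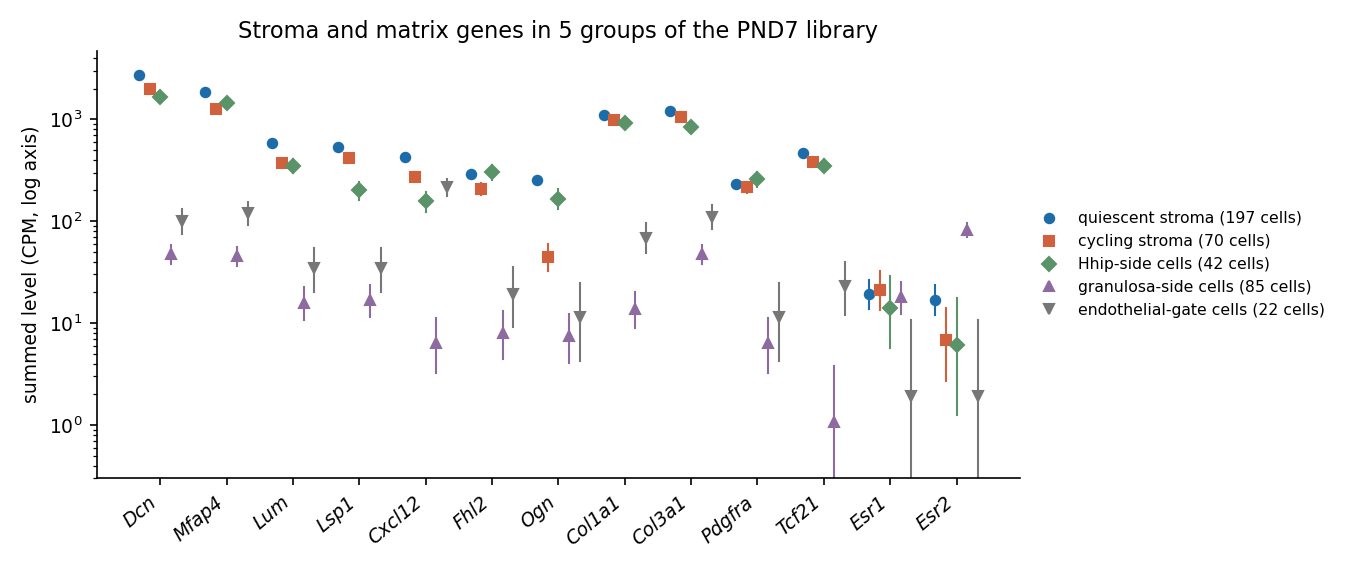
Summed level of 13 genes in quiescent stroma and 4 other groups of the postnatal day 7 library, in CPM on a log axis; points are sums over cells, and bars exact Poisson 95% intervals. Dcn stands at 2744 CPM in quiescent stroma and 47.5 in granulosa-side cells, while Esr2 stands at 16.9 and 81.8.

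Many cell cycle genes were lower in quiescent stroma than in cycling stroma. Of 11983 genes, 52 were higher in quiescent stroma (0.434%) and 483 lower (4.03%), and the median gene stood at 0.00. All 20 genes of G2 and M phase outside the rule were lower, with a median of -3.44, and they summed to 179.6 CPM against 4425. Of 20 S phase genes, 14 were lower and 0 higher, with a median of -1.35. The count was 17 once cells with at least 5 CP10K of Pclaf, Gins2 and Mcm5 were left out of quiescent stroma alone. Gins2 and Mcm5 are on the S phase list, so that rise follows from the choice of cells. Nusap1, a spindle protein, stood at 1.88 CPM against 341, and Cdc20, an activator of the anaphase-promoting complex, at 7.52 against 388. Cdk1, the kinase that drives entry into mitosis, stood at 30.6 CPM against 409, a 13.4-fold difference (10.3 to 17.6). The G2 and M phase genes share their phases with the genes of the mitosis threshold, so their direction is a description of the choice. Rrm2, a subunit of ribonucleotide reductase on the S phase list, stood at 19.8 CPM against 261. Outside the cell cycle lists, Camp (-5.81), Ngp (-5.79) and Ccl5 (-4.39) were also among the 12 lower genes with the largest ratios. Camp and Ngp stood at -0.13 and -0.02 once cells rich in blood RNA were left out of both groups.

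Promoters of the G2 and M phase genes are shown because their list had the lowest median of the 24 gene lists against cycling stroma. In the 250 bases before the start, on either strand, CCAAT was found in 13 of 16 genes of the list present in the RefSeq promoter table (81.2%), against 37.5% of all 27025 genes of that table. TTTGAA or TTCGAA, the letters of the cell cycle homology region, was found in 4 of 16 (25%), against 19.6%. Cdk1, Cdc20 and Kif11, printed below, each hold both motifs and so are not typical of the list. Sequences are from RefSeq, build GRCm38.p6, read 5′ to 3′ on the gene's strand, with matches of either motif on either strand in capitals. Cdk1 is at chr10:69352913-69353042 on the minus strand, Cdc20 at chr4:118437344-118437443 on the minus strand, and Kif11, a spindle motor, at chr19:37376282-37376381 on the plus strand.
Cdk1: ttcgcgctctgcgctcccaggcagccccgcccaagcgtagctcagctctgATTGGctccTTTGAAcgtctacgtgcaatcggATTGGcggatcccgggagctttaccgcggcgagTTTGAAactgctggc
Cdc20: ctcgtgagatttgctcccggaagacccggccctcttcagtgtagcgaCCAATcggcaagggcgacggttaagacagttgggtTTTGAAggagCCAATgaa
Kif11: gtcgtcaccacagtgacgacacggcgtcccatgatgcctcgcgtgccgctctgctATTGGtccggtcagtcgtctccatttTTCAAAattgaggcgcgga
In Cdk1 the CCAAT matches lie 80 and 48 bases before the start and the other motif 71 and 15 bases before it. A match is a run of letters and no evidence of binding.

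Most matrix genes were less than 2-fold apart between quiescent and cycling stroma, which both passed the stroma threshold. So were most of all 11983 genes, of which 0.434% were higher and 4.03% lower. Counts of 0 in short lists therefore do not set matrix genes apart from other genes. The collagens summed to 5786 CPM against 5298, with 0 of 11 at 2-fold and a median of 0.07. Elastic fibre genes had 0 of 14 at 2-fold and a median of 0.15, and basement membrane genes 0 of 14 and 0.12. The IGF family, with its binding proteins, had 0 of 10 at 2-fold. Among 8 proteoglycans, Ogn and Aspn passed that mark. Ogn stood at 254 CPM against 44.6, a ratio of 5.70 (4.21 to 7.88). Aspn, or asporin, stood at 26.8 CPM against 0 UMIs. That is 9.22-fold over a floor of 3 UMIs, or 2.91 CPM, in the cycling group, without the counting error of the 26.8 CPM. Of its 57 UMIs, 30 lay in the 15 cells of the smooth muscle-like sub-cluster described further on. The ratio to the floor was 4.87-fold without that sub-cluster and 5.50-fold without contractile cells. Dpt, or dermatopontin, another collagen-binding matrix protein, stood at 67.2 CPM against 15.5, a ratio of 4.34 (2.58 to 7.79).

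Outside the matrix lists, Ccnd2, a D-type cyclin, stood at 449 CPM against 158, a ratio of 2.84 (2.40 to 3.38). A cyclin was thus among the genes higher in the group outside mitosis. Meg3 stood at 1229.7 CPM against 608, a log2 ratio of 1.00, right at 2-fold, and no imprinted gene reached 2-fold under most of the alternative choices of cells. Of 11 genes tied to cell cycle exit, 0 were higher and 3 lower, namely Cdkn2c, Cdkn2d and Ccng2, where 0.434% of all genes were higher and 4.03% lower. Immune markers moved with this comparison, 8 of 9 tested being lower in quiescent stroma, and their part in it was not tested.

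**Figure D3:**
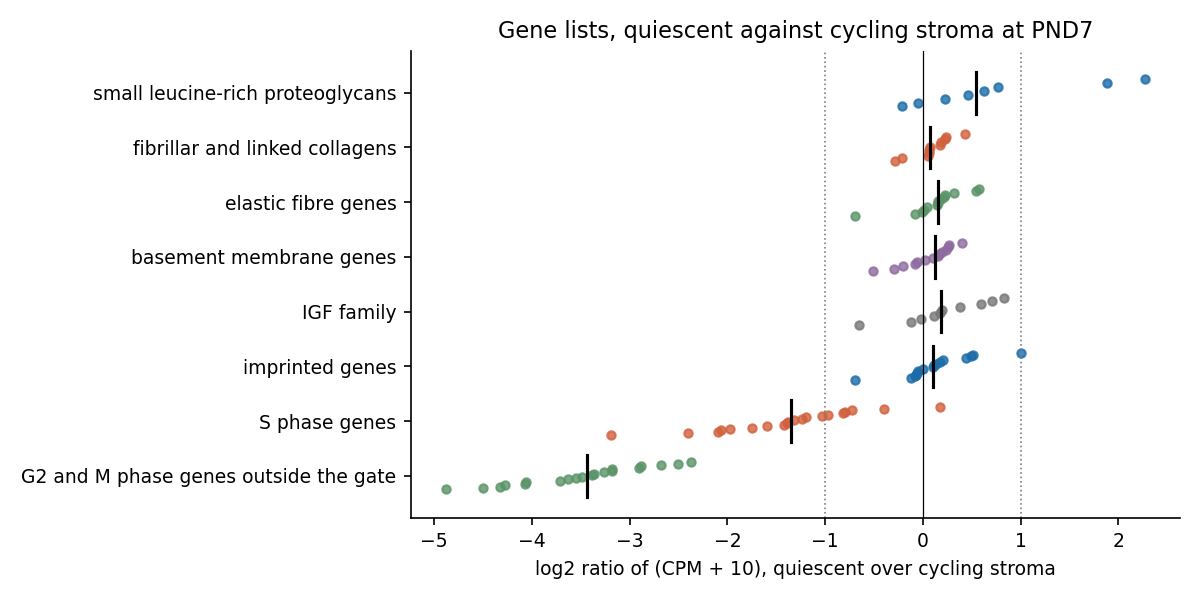
Log2 ratio of (CPM + 10), quiescent over cycling stroma, for each tested gene of 8 lists; black bars are list medians and dotted lines mark 2-fold. Medians lie at 0.07 for collagens, -1.35 for S phase genes and -3.44 for G2 and M phase genes.

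Quiescent stroma and Hhip-side cells lay under the same mitosis threshold, so low counts of cell cycle genes apart between them describe the choice. Of 11300 genes, 160 were higher in quiescent stroma (1.42%) and 79 lower (0.699%), with a median of 0.04. Of the cell cycle lists, 0 of 12 tested G2 and M phase genes and 1 of 20 S phase genes were 2-fold apart. Counts this small cannot be set apart from the shares over all genes. Cxcl12 stood at 425 CPM against 156, a ratio of 2.73 (2.16 to 3.49), and Lsp1, a gene of the rule, was 2.66-fold higher. Gas1, a co-receptor for Hedgehog ligands, stood at 198 against 82.8, and Wt1, a transcription factor of the gonadal mesenchyme and epithelium, at 203 against 84.8. Id1, a target of BMP signalling, stood 3.67-fold lower in quiescent stroma (2.60 to 5.18), and Smoc2, a secreted calcium-binding matrix protein, at 57.8 against 145. Ptch1, the Hedgehog receptor and a target of that pathway, stood at 138 against 257, under 2-fold. Of the smooth muscle markers, Myh11, Actg2, Cnn1 and Tagln were higher in quiescent stroma, which holds the contractile cells. Leukocyte RNA moved with this comparison, and its part in it was not tested. Of 9 immune markers tested 8 were lower in quiescent stroma, with a median of -1.58, and Pf4, C1qc, Apoe and Lyz2 were among the 12 lower genes with the largest ratios. S100a9, S100a8 and Stfa1, which the cells with blood RNA carry, were among the 12 higher ones.

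Both estrogen receptor mRNAs were at low levels in quiescent stroma. Esr1, which encodes estrogen receptor α, stood at 19.3 CPM (13.8 to 26.2) and Esr2, which encodes receptor β, at 16.9 CPM (11.9 to 23.4). In granulosa-side cells Esr1 stood at 17.9 CPM and Esr2 at 81.8. After each cell was thinned to 5000 UMIs, 7.61% of quiescent stroma cells (4.32% to 12.2%) had an Esr1 UMI and 10.2% (6.31% to 15.2%) an Esr2 UMI, against 9.41% and 30.6% of granulosa-side cells. Without thinning, 36 of the 197 quiescent stroma cells had an Esr1 UMI and 28 an Esr2 UMI. The order of the 2 genes by cells thus depended on the thinning. Either gene was found in 0 of 22 thinned endothelial-gate cells, which allows up to 15.4%. In summed counts the endothelial-gate cells held 1 UMI of each gene, or 1.92 CPM (up to 10.7), below the intervals of both genes in quiescent stroma. Of the 77 UMIs of both genes together in quiescent stroma, 36 were Esr2, or 46.8% (35.3% to 58.5%). The other cells of the library as a whole stood at nearly the same share, 46.9% (42.0% to 51.9%). Cycling stroma stood at 24.1% (10.3% to 43.5%), Hhip-side cells at 30.0% (6.67% to 65.2%) and granulosa-side cells at 82.0%. Only 4 of the 197 quiescent stroma cells held UMIs of both genes.

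Within the 197 cells, clustering gave 4 sub-clusters, described here by the genes that set them apart. Sub-cluster 1 held 62 cells (31.5%), with a median of 7518 UMIs, and sub-cluster 2 held 107 cells (54.3%), with a median of 8940.0. Sub-cluster 1 was led by Tgfbi, a matrix protein induced by TGF-beta, at 1027 CPM against 194 in the other members. Sub-cluster 2 held all 3 cells with blood RNA, and its first 4 genes by ratio were the blood cell genes S100a9, S100a8, Stfa1 and Alas2, so no stroma gene led it. Smoc2, the tenth gene, stood at 89.3 CPM there against 21.3. Over the 197 cells Tgfbi and Smoc2 had a Pearson correlation of -0.36, a description of cells that share 1 library.

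Sub-cluster 3 was smooth muscle-like and held 15 cells (7.61%), of which 11 were among the 15 contractile cells counted above. The name has limits, as 3 of the 10 smooth muscle or pericyte markers had 0 UMIs there. Acta2 was as low as 1.276 CP10K in a cell of this sub-cluster. Acta2, smooth muscle actin, stood at 6019.8 CPM there against 515 in the other members, Tagln at 2563 against 206, and Myh11, smooth muscle myosin, at 321 against 12.6. Actg2, an actin of visceral smooth muscle, stood at 509 against 6.29. These cells held Dcn at 2723 CPM, close to the 2744 of the whole group. Mfap5, a microfibril protein, stood at 977 CPM against 105. Contractile cells of this kind that pass the stroma threshold are thus part of the group by the rule. Over all members Acta2 and Tagln had a Pearson correlation of 0.71.

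Promoters of leading genes of sub-cluster 3 are shown because a CArG box, the element bound by serum response factor, was found in 2 of the 9 that the RefSeq table holds (22.2%), against 1.62% of its 27025 genes, in 250 bases before the start on either strand. Fbxl22, an F-box protein of striated muscle, is at chr9:66514774-66514833 on the minus strand, and Fhl1, a LIM-domain protein of muscle, at chrX:56779553-56779612 on the plus strand, in GRCm38.p6. Capitals mark the box, which starts 222 bases before the start of Fbxl22 and 102 before that of Fhl1.
Fbxl22: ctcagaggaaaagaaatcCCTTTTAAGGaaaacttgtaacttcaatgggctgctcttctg
Fhl1: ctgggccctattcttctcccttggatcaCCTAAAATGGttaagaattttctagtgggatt
Only 2 genes stand behind this share, and the table lacks Actg2, Myh11, Tagln, Mfap5, Cpe and Carmn. The contractile genes Acta2, Cnn1 and Mylk, which it holds, had no match.

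Sub-cluster 4 held 13 cells (6.60%) with a median of 12202 UMIs and a median stroma sum of 32.6 CP10K, the lowest of the 4. Pclaf, a factor bound to the replication clamp, stood at 442 CPM against 13.4, Gins2, part of the replicative helicase, at 173 against 19.6, and Mcm5, another part, at 183 against 23.2. The S phase list summed to 2557 CPM, against 2279.7 in cycling stroma, while the G2 and M phase list summed to 475, against 4425. Dcn stood at 1359 CPM, the lowest of the 4 sub-clusters.

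**Figure D4:**
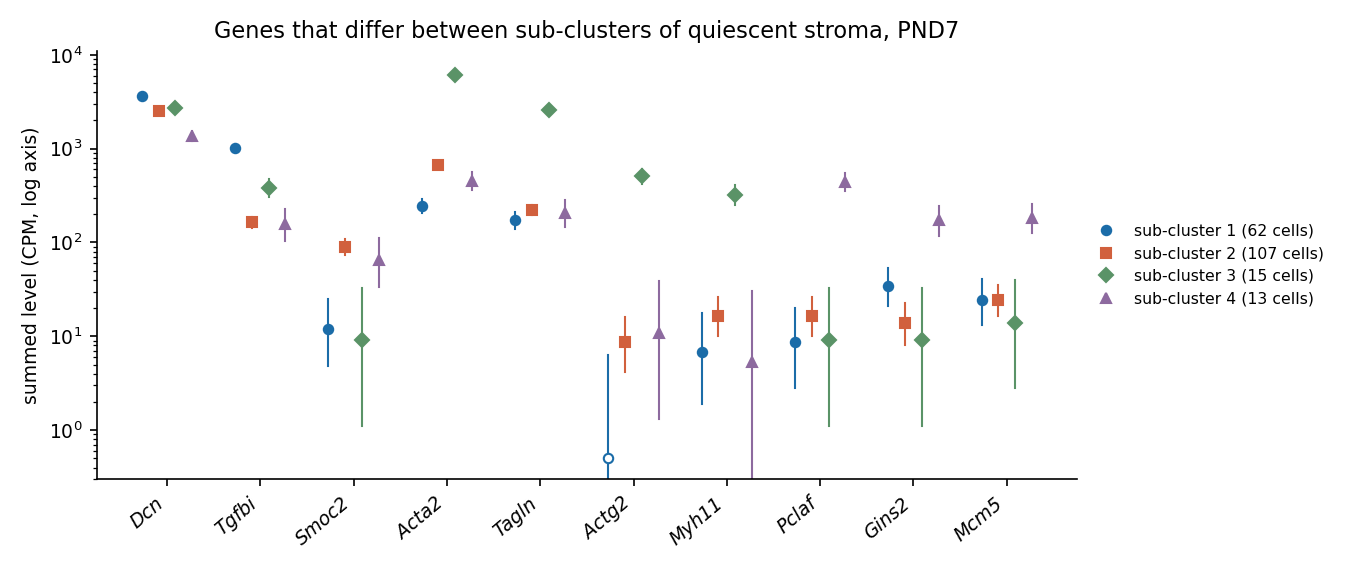
Summed level of 10 genes in the 4 sub-clusters of quiescent stroma, in CPM on a log axis; points are sums over cells, bars exact Poisson 95% intervals, and open symbols genes with 0 UMIs, drawn at 0.5 CPM. Acta2 reaches 6019.8 CPM in sub-cluster 3 and Pclaf 442 in sub-cluster 4, while Dcn lies between 1359 and 3650.0 in all 4.

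Few genes varied strongly from cell to cell. The Fano factor, the variance of a gene's UMIs over their mean, had a median of 1.04 over 3516 genes in cells thinned to 5000 UMIs, and 129 genes (3.67%) reached 2. S100a8 led at 61.5, and stood at 1.15 without the 3 cells with blood RNA, so its spread rests on them. Dlk1 stood at 16.4, Igfbp3 at 13.2 and Tagln at 11.8. Igfbp3, an IGF binding protein, had 63 UMIs in 17 cells, of which 47.6% came from 1 cell. Dlk1, an imprinted gene, was spread more widely, over 150 cells, with 6.92% of its UMIs in the highest cell. Over the 197 cells Dlk1 had a Pearson correlation of 0.66 with Meg3 and 0.37 with H19, both noncoding RNAs of imprinted regions.

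Members with a higher stroma sum held more Dlk1 and H19. The group was split at the median of the stroma sum, 61.4 CP10K, with 27 cells within 10% of that value, into 99 cells above (median 7943 UMIs) and 98 below (median 9805). Of 10746 genes, 43 were higher in the upper cells (0.400%) and 40 lower (0.372%), with a median of 0.03. Dlk1 stood at 1187 CPM above and 379 below, a ratio of 3.13 (2.80 to 3.50), and H19 at 169 against 30.9, a ratio of 5.47 (3.81 to 8.03). Cxcl12 was 2.24-fold higher above (1.96 to 2.57). Pclaf and Actg2 were lower above, the genes of sub-clusters 4 and 3.

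Cells meeting the same rule in the other libraries were set beside quiescent stroma, with age and library confounded. Both age comparisons share the postnatal day 7 cells. From postnatal day 7 to 14, 92 of 11919 genes were higher (0.772%) and 105 lower (0.881%), with a median of -0.06. From embryonic day 16.5 to postnatal day 7, 292 of 11999 were higher (2.43%) and 227 lower (1.89%), with a median of -0.03.

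Part of the imprinted genes stood lower at each later age. At postnatal day 14, 7 of 17 were lower and 0 higher than at postnatal day 7, with a median of -0.59. At postnatal day 7, 8 of 18 were lower and 0 higher than at embryonic day 16.5, with a median of -0.79. Of all genes, 0.881% were lower over the later step and 1.89% over the earlier one. Their sum was 9072 CPM in the embryonic cells, 4639 at postnatal day 7 and 1917 in the oldest cells. Dlk1 stood at 1101, 720.4 and 14.6 CPM, so its larger step was the later one, 49.4-fold (31.2 to 83.6). H19 stood at 1815, 89.3 and 1.62 CPM, with steps of 20.3-fold (17.5 to 23.7) and 55.2-fold (15.1 to 459). Meg3 stood at 2754, 1229.7 and 173 CPM. Cdkn1c, an inhibitor of cyclin-dependent kinases, stood at 487, 168 and 59.9 CPM. Igf2, a growth factor, had 31.7 CPM in the embryonic cells, 1.41 at postnatal day 7 and 0 UMIs in the oldest cells.

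Some proteoglycans were higher at later ages. From postnatal day 7 to 14, 4 of 8 proteoglycans were higher, namely Fmod, Ogn, Aspn and Omd, with a median of 0.60, while Dcn and Lum stood at -0.85 and -0.37 and the summed list went from 4677 to 3975 CPM. Of the collagens 0 of 10 were 2-fold apart over that step, with a median of 0.04. Of all genes, 0.772% were higher and 0.881% lower over it, so a count of 0 does not set the collagens apart. From embryonic day 16.5 to postnatal day 7, Col12a1 was higher (1.16) and Col14a1 lower (-1.19) among 11 collagens, with a median of -0.07. Of all genes, 2.43% were higher and 1.89% lower over that earlier step. Ogn stood at 37.4, 254 and 683 CPM at the 3 ages, and Aspn at 0.959, 26.8 and 177. Dcn stood at 650.5, 2744 and 1519.6 CPM, highest at postnatal day 7, but it is part of the rule. Col1a1, a chain of type I collagen, stood at 1203, 1110.2 and 1116 CPM, and Col3a1 at 1262, 1199.6 and 1360.0. Mfap5 stood at 6.72, 194 and 231 CPM. The order of levels across ages thus differed between matrix genes.

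**Figure D5:**
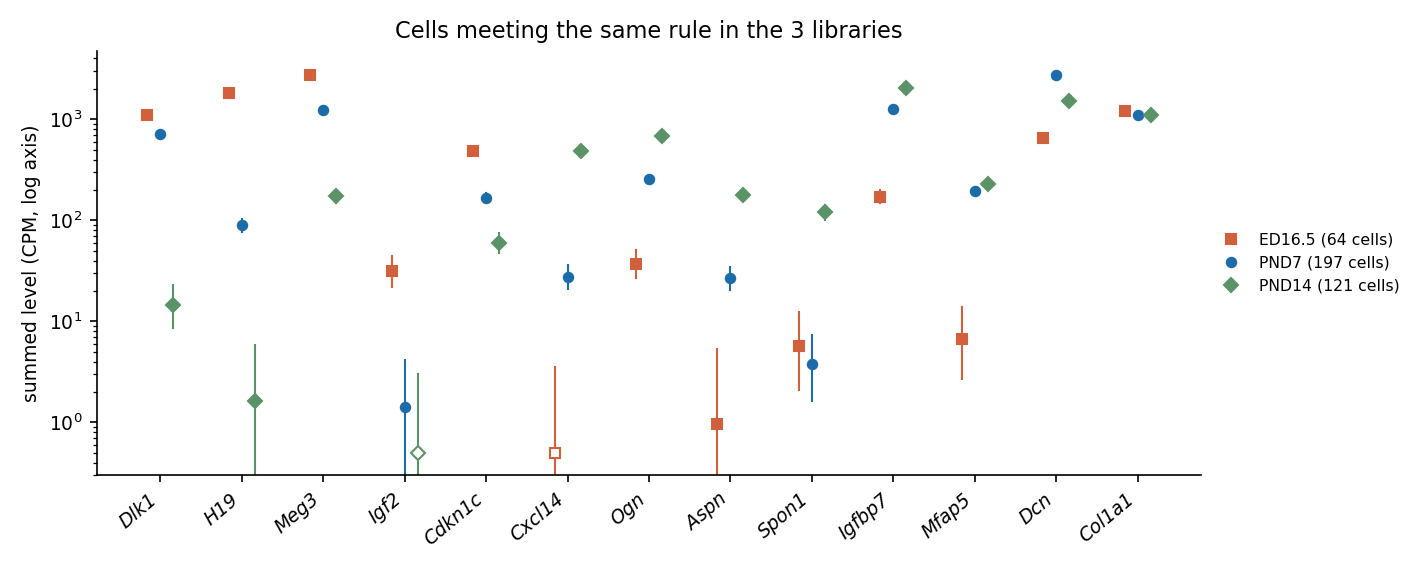
Summed level of 13 genes in cells meeting the same rule in the libraries ED16.5 (64 cells), PND7 (197) and PND14 (121), in CPM on a log axis; points are sums, bars exact Poisson 95% intervals, open symbols genes with 0 UMIs, drawn at 0.5 CPM. Dlk1 goes from 1101 to 720.4 to 14.6 CPM, Ogn from 37.4 to 254 to 683, and Col1a1 stays between 1110.2 and 1203.

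Single genes of secreted proteins, picked after their values were seen, are given by age. Cxcl14, the gene higher at postnatal day 14 among 8 tested chemokines, cytokines and receptors, had 0 UMIs in the embryonic cells, 27.7 CPM at postnatal day 7 and 488 in the oldest cells, the last step 17.6-fold (13.5 to 23.4). Its UMIs lay in 90 of the 121 cells, with 8.13% in the highest. Igfbp7 stood at 171, 1271 and 2019 CPM at the 3 ages. Igfbp5 went the other way, at 1574, 380.4 and 151 CPM. Ptn, a heparin-binding growth factor, stood at 1075, 371 and 33.2 CPM. Spon1, a matrix protein, stood at 5.76, 3.76 and 119.9 CPM.

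Several hormone receptors and regulators differed between the embryonic and the postnatal cells. Esr2 had 0 UMIs in the 64 embryonic cells, 16.9 CPM at postnatal day 7 and 32.4 in the oldest cells. The first step was 5.88-fold over a floor of 3 UMIs, or 2.88 CPM, without the counting error of the 16.9 CPM. The second step was 1.91-fold (1.19 to 3.09). Esr1 stood at 20.1, 19.3 and 12.2 CPM. Esr2 made up 0 of 21 UMIs of both genes in the embryonic cells (up to 16.1%), 46.8% at postnatal day 7 and 72.7% (59.0% to 83.9%) at postnatal day 14. Foxl2, a transcription factor of the ovarian somatic lineage, stood at 45.1, 178 and 164 CPM. Ptch1 stood at 15.4, 138 and 110.2 CPM, the first step 9.01-fold (5.45 to 16.0). Of the WNT and R-spondin genes, 8 of 16 were lower at postnatal day 7 than in the embryonic cells and 1 was higher, with a median of -0.90. Of all genes, 1.89% were lower and 2.43% higher. Wnt4, a ligand of early ovarian development, stood at 184, 74.8 and 32.4 CPM, and Rspo1 at 41.3 CPM in the embryo and 2.82 at postnatal day 7. Fst, or follistatin, which granulosa cells also make, stood at 114, 2.35 and 4.05 CPM. Of 6 tested granulosa markers, Fst, Kitl and Bex2 were higher in the embryonic cells and Serpine2 was lower. The 6 stroma markers had a median of 20.6 CP10K in the embryonic cells, against 66.4 at postnatal day 7. With a stroma threshold of 20 CP10K, 29 of the 64 embryonic cells remained, against 185 of the 197. The part of other cell types among the embryonic cells in these differences was not tested.

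Some age differences rest on few cells. S100a8 and S100a9 stood at a log2 ratio of -4.00 and -3.53 from postnatal day 7 to 14, and at -1.47 and -1.29 without the cells with blood RNA. Actg2 stood at 2.76 from embryonic day 16.5 to postnatal day 7, and at 0.21 without contractile cells. Hspa1a, a heat shock chaperone that dissociation can induce, stood at 10.6, 457 and 630.2 CPM, and the part of dissociation in other differences between libraries was not tested. All 64 embryonic cells held erythroid markers, at 35.2 to 78.7 CP10K with a median of 52.7. The medians were 4.21 CP10K at postnatal day 7 and 3.84 at postnatal day 14. The part of RNA from other cells in the embryonic comparison was not tested.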

How the data were processed

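UMI counts per gene and cell were used as deposited by the authors, 1 matrix per library. Per the labels' protocols, droplet 3′ libraries were made and all 3 shared a sequencing lane, and Cell Ranger 2.1.1 and GRCm38 are named per the submitters' processing notes. The annotation and the barcode filter were not given in the sources used here. Cells with at least 200 genes were kept, cells that Scrublet called doublets included. The tables hold 53465 gene identifiers, and 108 symbols have several, so their levels are uncertain (Aldoa among them). UMIs were summed per group, scaled to CPM, and compared as log2 ratios of (CPM + 10). Genes named were the 12 largest ratios per direction with at least 50 UMIs in the higher group and intervals that do not overlap, the receptors, rule and marker genes, the extreme or 2-fold members of 24 gene lists, and the 12 largest Fano factors. Other genes named for their levels across groups or ages were chosen after their values were seen. Some genes are not reported here. Members and lists were chosen with earlier results of these data known. Sub-clusters came from Leiden clustering in scanpy 1.11.5 (resolution 0.5, 20 principal components, 15 neighbours, 2000 variable genes without list and rule genes). Scripts used python 3.11.15, numpy 2.4.6, scipy 1.17.1, pandas 2.3.3 and matplotlib 3.10.9 and were tested on simulated data. Alternatives changed the pseudocount, the count filter, the weighting of cells, the rule's thresholds, the thinning and the cells left out.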

Additional observations from a re-analysis of the deposited data

How the results depend on the processing

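Of 138 values that answer a comparison, each under an alternative setting, 122 moved within their limits, 16 moved beyond them and 0 reversed. The share of quiescent stroma was 31.6% when the rule was applied to cells thinned to 5000 UMIs. A pseudocount of 1 CPM raised the counts of genes 2-fold apart to 848 higher and 3073 lower against the other cells, 579 and 1005 against cycling stroma, 444 and 705 from postnatal day 7 to 14, and 865 and 1020 from embryonic day 16.5 to postnatal day 7. Weighting every cell alike gave 192 higher against the other cells. Against cycling stroma 83 were higher with the thinned rule and 82 with a stroma threshold of 20 CP10K. A filter of 50 UMIs gave 130 lower from embryonic day 16.5 to postnatal day 7. The highest against the lowest tercile of the stroma sum gave 140 higher and 106 lower, and Leiden resolution 1.0 gave 7 sub-clusters. Of single genes, 1476 of 1586 values moved within their limits, 106 moved and 4 reversed, all against cycling stroma: Ccl5 stood at 0.07 with a threshold of 20 CP10K, 0.00 without cells holding markers of other classes and 0.07 without Lsp1 in the rule, and Ngp at 0.04 without cells holding markers of other classes. Mixed cells, contractile cells, S phase cells, sub-cluster 3, Lsp1 and the rule's own genes within the lists were taken up in alternatives chosen after seeing the data. The cause of these changes was not tested. No paired analysis was possible because each age has 1 library, and no replicate could be left out. A floor of 3 UMIs over the 197 cells is 1.41 CPM.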

Other observations

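Of the MHC class I and interferon-induced genes, 2 of 12 were higher at postnatal day 7 than at embryonic day 16.5, namely Tapbp and Bst2, where 2.43% of all genes were higher, with a median of 0.66 against -0.03 over all genes. From postnatal day 7 to 14, H2-D1 alone of 11 was higher, at 1.52, where 0.772% of all genes were. The list summed to 1327 CPM in the embryonic cells, 2141 at postnatal day 7 and 2358 in the oldest cells. Against cycling stroma, H2-K1 and H2-D1 were the 2 of 14 genes lower in quiescent stroma (4.03% of all genes), where immune markers were also lower, and the part of leukocyte RNA in this was not tested.

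Across the sub-clusters, the IGF family summed to 4856 CPM in sub-cluster 1, 3267 in sub-cluster 2, 2709.6 in sub-cluster 3 and 3393 in sub-cluster 4. The retinoic acid pathway summed to 1599, 908, 609.8 and 739 CPM in the same order.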
